A study of Mus musculus with 12 samples.

Results

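The genes described here are 10 genes of MHC class I antigen presentation, namely the heavy chains H2-K1 and H2-D1, the light chain B2m, the peptide transporter subunits Tap1 and Tap2, tapasin (Tapbp), the immunoproteasome subunits Psmb8, Psmb9 and Psmb10, and the class I transactivator Nlrc5. They were chosen by name for their place in this pathway, without a threshold on their values but with earlier results of these data known. Shares over all genes are therefore given as a background and not as a test of the choice. All 10 are among the 43278 gene symbols of the table. All 10 passed the filter on low values in every comparison.

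MHC class I molecules display peptides from inside the cell to CD8+ T cells. Proteins are cut by the proteasome, whose catalytic subunits can be replaced by those of the immunoproteasome, the peptides are carried into the endoplasmic reticulum by the TAP transporter, and tapasin holds empty class I molecules at TAP until a peptide is bound. Nlrc5 is a transcriptional activator of class I genes, and interferons and Toll-like receptor ligands such as LPS are known to raise these genes in macrophages.

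Poly(A) RNA was sequenced from cultured peritoneal macrophages (PMφs) of WT C57BL/6J mice aged 8 to 12 wk, in 4 groups of 3 libraries. In every group the cells had been elicited with 1 ml of 4% thioglycolate, collected by lavage on day 4 and left to adhere for 18 h, and cells of male and female littermates, up to 10 mice, had been pooled and then divided among the groups. Control PMφs were given neither agent, oxLDL PMφs were given 100 µg/ml of medium oxidized human LDL for 24 h, LPS PMφs were given 10 ng/ml ultrapure LPS, and oxLDL+LPS PMφs were given oxLDL and then LPS. The duration of LPS is not given for these libraries. Pooled, elicited and cultured cells limit the model, since differences between mice are averaged and resident macrophages were not studied.

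Most of these genes lie in the MHC region. Positions are those of GENCODE vM21 on GRCm38. Tapbp (chr17:33915899-33929292), H2-K1 (chr17:33996017-34000347), Psmb9 (chr17:34181987-34187764), Tap1 (chr17:34187553-34197225), Psmb8 (chr17:34197721-34201454), Tap2 (chr17:34203527-34216321) and H2-D1 (chr17:35262730-35267499) span 1.35 Mb. Psmb9, Tap1, Psmb8 and Tap2 form a cluster of 34.3 kb, in which Psmb9 is on the minus strand and the other members are on the plus strand. B2m (chr2:122147686-122153083), Psmb10 (chr8:105935735-105938444) and Nlrc5 (chr8:94434356-94527272) lie outside it.

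The sequence before the start of a gene was read from RefSeq promoters on GRCm38.p6, which hold 8 of the 10 genes. Tap2 and Nlrc5 had no entry, and the first of the 2 entries of H2-K1 was used. The heavy chain and light chain promoters are shown because they share motif letters, and the stretch between the Psmb9 and Tap1 starts because both genes begin there in RefSeq. RefSeq and GENCODE starts can differ. By GENCODE, Psmb9 begins at 34187764 and H2-D1 at 35262730, so these 2 sequences lie within the genes as placed above. Distances below are from the RefSeq starts. Each sequence runs 5′ to 3′ on the strand of its gene and ends at the base before the start. The H2-K1 sequence is chr17:34000348-34000597 on the minus strand, H2-D1 is chr17:35262844-35263093 on the plus strand, B2m is chr2:122147437-122147686 on the plus strand, and the Psmb9 to Tap1 stretch of 225 bases is chr17:34187331-34187555 on the plus strand. Capitals mark matches to any of the motifs given in the next paragraph.
H2-K1: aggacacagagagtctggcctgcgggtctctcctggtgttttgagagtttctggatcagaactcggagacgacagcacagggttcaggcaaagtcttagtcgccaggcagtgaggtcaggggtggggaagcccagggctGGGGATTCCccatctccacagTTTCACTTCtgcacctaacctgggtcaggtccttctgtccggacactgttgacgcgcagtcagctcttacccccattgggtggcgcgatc
H2-D1: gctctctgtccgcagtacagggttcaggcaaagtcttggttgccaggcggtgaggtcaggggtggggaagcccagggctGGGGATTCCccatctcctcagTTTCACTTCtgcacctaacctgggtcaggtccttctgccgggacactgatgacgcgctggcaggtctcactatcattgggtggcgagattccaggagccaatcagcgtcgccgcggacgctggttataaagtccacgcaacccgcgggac
B2m: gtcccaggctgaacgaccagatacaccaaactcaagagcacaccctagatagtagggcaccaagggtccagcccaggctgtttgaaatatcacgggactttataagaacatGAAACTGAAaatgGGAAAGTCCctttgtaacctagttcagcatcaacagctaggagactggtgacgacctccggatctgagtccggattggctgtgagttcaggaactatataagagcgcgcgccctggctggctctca
Psmb9 to Tap1: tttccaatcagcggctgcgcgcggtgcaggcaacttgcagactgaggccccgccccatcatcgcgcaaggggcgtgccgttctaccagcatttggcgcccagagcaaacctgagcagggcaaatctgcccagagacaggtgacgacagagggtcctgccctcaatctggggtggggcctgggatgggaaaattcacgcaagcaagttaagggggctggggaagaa

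The motifs were searched on both strands in the 250 bases before each start, and a match is only a match of letters. The kB letters GGGNNTTCC or GGNNTTTCC were found in 3 of the 8 genes, H2-K1, H2-D1 and B2m, and in 8.36% of all 32851 promoters. The match began at base −111 in H2-K1 and at base −171 in H2-D1, and H2-K1 and H2-D1 shared an identical run of 47 bases that holds it. In B2m the match lay on the minus strand from −126 to −118. The core letters of the interferon-stimulated response element, GAAANNGAA, were found in B2m at −139 and in 7.13% of all promoters. GAANNGAAA, a form added after the sequences were read, was found on the minus strand of H2-K1 from −90 and of H2-D1 from −150, and in 6.31% of all promoters. The GAS letters TTCNNNGAA were found in Psmb8 at −97 and in 7.02% of all promoters. TGACGT, the letters of the cAMP response element, was found in none of the 8 genes and in 6.47% of all promoters. The Psmb9 to Tap1 stretch held none of these letters. Motif letters overlapped each other in no gene shown.

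The deposited values are read counts scaled by 1 factor per library and are called normalized counts here. They summed to between 17152972 and 17709731 in libraries without LPS, and to between 22071853 and 26384551 with LPS, and the reads behind them were not recovered. Together the 10 genes made up 0.778% to 0.885% of the total without LPS and 1.21% to 1.48% with LPS. The summed level of 8 macrophage markers was 236683 to 272543 in control, 231967 to 244364 in oxLDL, 264030 to 347950 in LPS and 258417 to 296851 in oxLDL+LPS libraries. T cell markers summed to 2 to 14 and NK cell markers to 0 to 6, and of the other marker lists Ly6g of neutrophils and Prg2 of eosinophils were at 0 in every library. In the same order of groups, eosinophil markers summed to 319 to 385, 182 to 305, 104 to 125 and 58 to 107, and neutrophil markers to 75 to 77, 57 to 64, 81 to 180 and 129 to 258. Plasmacytoid dendritic cell markers summed to 10 to 33, 11 to 33, 38 to 76 and 42 to 77, and conventional dendritic cell markers to 54 to 89, 59 to 71, 91 to 101 and 82 to 98. The sum of the eosinophil markers was thus lower, and those of neutrophils and plasmacytoid dendritic cells higher, in the libraries with LPS. The conventional dendritic cell sums were also higher in LPS than in control libraries and in oxLDL+LPS than in oxLDL libraries. They overlapped only between control (54 to 89) and oxLDL+LPS libraries (82 to 98). Members did not move together, since S100a8 of neutrophils was at 31 to 49 without LPS and 74 to 248 with it, and Cxcr2 at 15 to 43 and 0 to 3. Of the conventional dendritic cell markers, Clec9a was lower with LPS (15 to 37 and 4 to 8). Zbtb46 (16 to 52 and 58 to 84) and Xcr1 (0 to 1 and 3 to 13) were higher, and Flt3 and Cd209a overlapped. In the same order, the eosinophil sum was mostly Siglecf (180 to 383 and 55 to 124), with Ccr3 at 1 to 4 and 1 to 10. The plasmacytoid sum rose through Ccr9 (2 to 14 and 24 to 47), while Cox6a2 was at 7 to 29 and 8 to 41. B cell markers summed to 39 to 86 and mast cell markers to 33 to 117 over all libraries. The mesothelial or fibroblast list summed to between 2784 and 17155 and differed mostly between replicate numbers, Col1a1 being lowest in replicate 3 of every group. The part of these lists in the results was not tested. In RNA from whole cultures, fewer cells of a type and less RNA per cell cannot be told apart.

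**Figure D1:**
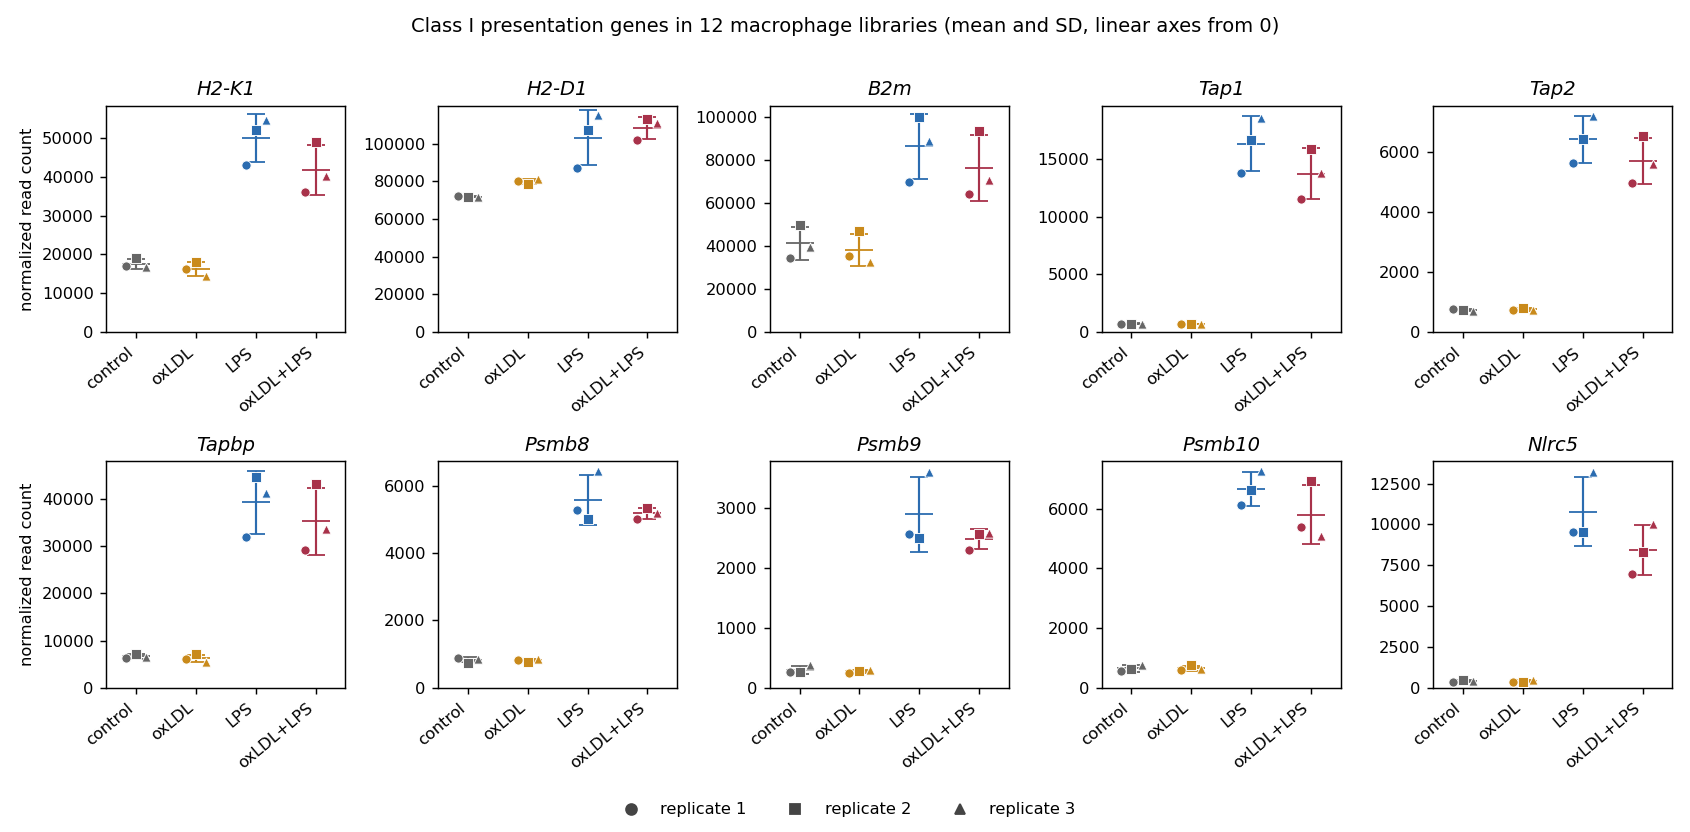
Normalized read count (linear axis from 0) of each of the 10 genes in the 4 groups, with 1 symbol per library shaped by replicate number, and the mean and SD of 3 libraries. In all 10 genes the 3 LPS libraries lie above the 3 control libraries and the 3 oxLDL+LPS libraries above the 3 oxLDL libraries. Each gene has its own axis, and the fold after LPS was the smallest in H2-D1 (1.43-fold) and the largest in Nlrc5 (25.6-fold).

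To see how the genes responded to LPS, LPS PMφs were compared with control PMφs, and oxLDL+LPS PMφs with oxLDL PMφs. All 10 genes rose in both comparisons, by 1.43-fold (H2-D1) to 25.6-fold (Nlrc5) without oxLDL and by 1.36-fold (H2-D1) to 21.6-fold (Nlrc5) with it. Of all genes tested, 31.4% were called higher in the first comparison (4093 of 13023) and 28.2% in the second (3633 of 12900), at a limma adjusted p under 0.1. In all 10 genes every LPS library was above every library without LPS, against 32.1% and 29.6% of all genes tested. The median log2 fold change of the 10 genes was 2.92 and 2.79, beside −0.001 and −0.02 over all genes tested. Fold changes are on the scale of log2 of the normalized count plus 1.

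The scaling of the libraries bears on these folds, since LPS libraries had higher totals. When each library was rescaled to the same total, the median of all genes moved to −0.48 and −0.41, and the calls shifted from 4093 higher and 3946 lower to 2170 and 7224 without oxLDL, and from 3633 and 3397 to 2031 and 6660 with it. Of the 10 genes, 9 were still called higher in both comparisons under that scaling. The exception was H2-D1.

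The heavy chains present the peptide and differed in their response. H2-K1 was at 16925, 19078 and 16830 normalized counts in control libraries and at 42916, 52129 and 54739 with LPS. In oxLDL libraries it was at 16338, 18057 and 14437, and at 36132, 48875 and 40289 with oxLDL+LPS. The groups with and without LPS did not overlap, since the lowest treated library (36132) was well above the highest untreated one (19078). H2-K1 rose by 1.50 ± 0.14 (log2, SE, n = 3 against 3) after LPS and by 1.35 ± 0.15 in oxLDL PMφs, with limma adjusted p of 7.72e-05 and 0.000333.

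H2-D1 began at a higher level and rose less. It was at 72037, 71762 and 71706 in control libraries, with a lower coefficient of variation (0.247%) than any other of the 10 genes, and at 87101, 107066 and 115290 with LPS. It was at 80028, 78798 and 81246 with oxLDL and at 101866, 112953 and 110679 with oxLDL+LPS. The LPS replicate 1 library was the lowest of the treated ones and still above all untreated ones. The log2 fold change was 0.51 ± 0.18 (limma adjusted p = 0.0403) and 0.44 ± 0.16 (limma adjusted p = 0.0538), but with the same total per library it fell to 0.03 and 0.05 and neither was called (limma adjusted p = 0.864 and 0.803). Over all alternatives the limma adjusted p of H2-D1 ranged from 0.00816 to 0.864 without oxLDL and from 0.0183 to 0.803 with it. The call was lost in the first comparison without any 1 of control replicates 1, 2 and 3 or without LPS replicate 3 (limma adjusted p = 0.114, 0.105, 0.113 and 0.112), and in the second without oxLDL replicate 1 or 2 or oxLDL+LPS replicate 3 (limma adjusted p = 0.144, 0.125 and 0.136).

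B2m, the light chain that every class I heavy chain needs for transport to the surface, was at 34614, 49794 and 39309 in control libraries and at 69868, 99899 and 88842 with LPS. With oxLDL it was at 35475, 46764 and 32483, and with oxLDL+LPS at 64323, 93535 and 70819. Replicate 2 was the highest library of each group, and the groups with and without LPS did not overlap. B2m rose by 1.06 ± 0.21 and 0.99 ± 0.21 (log2, SE), with limma adjusted p of 0.00335 and 0.00652. These are 2.09-fold and 1.99-fold, between H2-D1 and H2-K1.

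Because the scale of a library cancels in a ratio of 2 genes of the same library, ratios were taken per kb of exon. The length of a gene is that of all its annotated exons merged. The level of a ratio depends on this length, while its fold between groups does not. The H2-K1 to H2-D1 ratio, chosen after the values were seen, was 0.206, 0.233 and 0.206 in control libraries and 0.433, 0.427 and 0.417 with LPS, a 1.98-fold difference with no overlap. In oxLDL libraries it was 0.179, 0.201 and 0.156, and 0.311, 0.38 and 0.32 with oxLDL+LPS. It was thus lower with oxLDL than without, by 0.27 on the log2 scale in the absence of LPS and by 0.34 in its presence, without overlap. Each of these 4 differences had an exact two-sided permutation p of 0.1, the smallest that 3 against 3 libraries can give, and an adjusted p of 0.16 over 16 tests of ratios chosen in this way. The H2-K1 to B2m ratio differed less, by 1.35-fold after LPS and 1.28-fold in oxLDL PMφs.

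Tap1 and Tap2 form the transporter that carries peptides into the endoplasmic reticulum. Tap1 was at 750, 687 and 749 normalized counts in control libraries and at 13785, 16607 and 18507 with LPS. It was at 686, 693 and 735 with oxLDL and at 11493, 15874 and 13760 with oxLDL+LPS. The rise was 4.47 ± 0.12 and 4.27 ± 0.12 (log2, SE), or 22.2-fold and 19.3-fold, with limma adjusted p of 2.35e-07 and 5.3e-07. The 6 libraries without LPS lay between 686 and 750, far under the lowest treated library at 11493.

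Tap2, its partner, started from a like count and rose less. It was at 774, 746 and 721 in control libraries and at 5623, 6425 and 7202 with LPS. It was at 740, 807 and 737 with oxLDL and at 4979, 6524 and 5593 with oxLDL+LPS. Its rise was 3.09 ± 0.11 and 2.89 ± 0.11 (log2, SE), or 8.54-fold and 7.44-fold, with limma adjusted p of 5.46e-07 and 1.98e-06, and the groups did not overlap. Per kb, the Tap1 to Tap2 ratio was 0.636 to 0.717 in control libraries and 1.69 to 1.78 with LPS. Merged exons are 5.476 kb for Tap1 and 3.781 kb for Tap2, while their longest coding transcripts are 2953 and 3442 bases. Which of the pair was higher in control libraries therefore depends on the length used. The ratio went from 0.593 to 0.689 with oxLDL to 1.59 to 1.7 with oxLDL+LPS. This ratio was chosen after the values were seen, and its exact two-sided permutation p was 0.1 in both comparisons (adjusted p = 0.16).

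Tapbp, which joins class I molecules to TAP, was the highest of these 3 genes. It was at 6299, 7236 and 6485 in control libraries and at 31897, 44754 and 41394 with LPS. With oxLDL it was at 6114, 7066 and 5480, and with oxLDL+LPS at 29174, 43164 and 33658. Replicate 2 was again the highest library in each group. Tapbp rose by 2.55 ± 0.15 and 2.49 ± 0.17 (log2, SE), with limma adjusted p of 6.53e-06 and 2.69e-05. The annotated exons of Tap1 overlap those of Psmb9 on the other strand over 212 bases, and Tap2, Tapbp and Psmb8 each overlap antisense genes, the one with the longest overlap being at no more than 103 normalized counts in any library. Nlrc5 overlaps the antisense gene 9330175E14Rik over 78 bases, which was at 56 to 540 normalized counts. Whether counting used the strand is not stated, so reads in these stretches cannot be told apart.

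Psmb8, Psmb9 and Psmb10 are the catalytic subunits of the immunoproteasome, and replace Psmb5, Psmb6 and Psmb7 in that order. Psmb8 was at 878, 741 and 854 in control libraries and at 5287, 5031 and 6454 with LPS. It was at 816, 761 and 854 with oxLDL and at 5032, 5351 and 5195 with oxLDL+LPS. The groups did not overlap, and it rose by 2.76 ± 0.12 and 2.68 ± 0.08 (log2, SE; limma adjusted p = 1.53e-06 and 5.51e-07).

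Psmb9, which starts opposite Tap1, was the lowest of the 3 subunits. It was at 259, 260 and 377 in control libraries and at 2562, 2495 and 3600 with LPS. It was at 242, 278 and 298 with oxLDL and at 2289, 2561 and 2577 with oxLDL+LPS. Replicate 3 stood highest in all 4 groups, and the rise was 3.27 ± 0.20 and 3.18 ± 0.11 (log2, SE), or 9.65-fold and 9.07-fold (limma adjusted p = 7.25e-06 and 9.83e-07). The per kb ratio of Psmb9 to Tap1, chosen after the values were seen, changed by a factor of 0.435 after LPS and of 0.471 in oxLDL PMφs, so that it was lower with LPS. The 2 genes of the shared start region shown above thus rose by different folds, without overlap of the ratios between groups (exact two-sided permutation p = 0.1 and adjusted p = 0.16 in both comparisons).

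Psmb10 was at 551, 619 and 755 in control libraries and at 6130, 6628 and 7252 with LPS. It was at 585, 748 and 610 with oxLDL and at 5376, 6936 and 5090 with oxLDL+LPS. The groups with and without LPS did not overlap. The rise was 3.38 ± 0.13 after LPS and 3.16 ± 0.15 in oxLDL PMφs (log2, SE), close to that of Psmb9 (limma adjusted p = 8.12e-07 and 4.81e-06).

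The constitutive partners rose as well, but less. After LPS Psmb5 rose by 0.54 ± 0.16, Psmb6 by 1.27 ± 0.12 and Psmb7 by 0.81 ± 0.10 (log2, SE; limma adjusted p = 0.024, 7.67e-05 and 0.000333), but with the same total per library the difference of Psmb5 was 0.05 and was not called (limma adjusted p = 0.792). The per kb ratio of Psmb8 to Psmb5 was 0.175, 0.219 and 0.198 in control libraries and 0.822, 0.961 and 0.973 with LPS. That of Psmb9 to Psmb6 was 0.0432, 0.0417 and 0.0637 in control libraries and 0.208, 0.157 and 0.226 with LPS. That of Psmb10 to Psmb7 was 0.911, 1.24 and 1.38 in control libraries and 6.53, 7.17 and 7.14 with LPS.

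The 3 ratios were thus 4.66-fold, 4-fold and 5.98-fold higher with LPS than in control PMφs, with no overlap, and 4.13-fold, 3.86-fold and 5.15-fold higher with oxLDL+LPS than with oxLDL, again with no overlap. Each of these 6 differences had an exact two-sided permutation p of 0.1, the smallest possible with 3 against 3 libraries, and an adjusted p of 0.171 over 12 tests. Per kb of merged exon, Psmb8 RNA was at 0.822 to 0.973 of the level of Psmb5 with LPS. On the same measure Psmb9 RNA was under that of Psmb6 in every library and Psmb10 RNA above that of Psmb7 in every LPS library. Merged exons are 3.381 kb for Psmb8 and 3.66 kb for Psmb9, while their longest coding transcripts are 1628 and 1352 bases. Which subunit of a pair was higher thus depends on the length used, and other lengths were not tested.

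**Figure D2:**
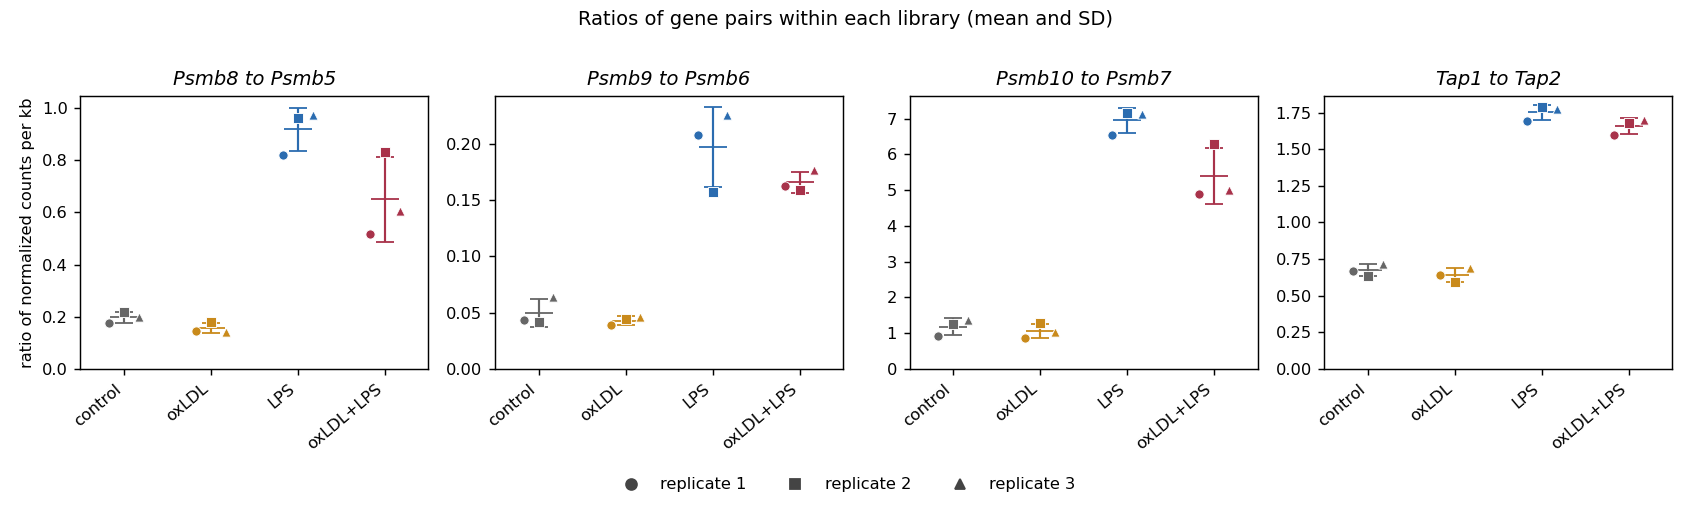
Ratio of normalized counts per kb of exon within each library (linear axes from 0) for the 3 immunoproteasome subunits to their constitutive partners and for Tap1 to Tap2, with 1 symbol per library shaped by replicate number and the mean and SD of 3 libraries. The LPS libraries lie above the libraries without LPS in all 4 panels, and in the Psmb10 to Psmb7 panel the oxLDL+LPS libraries (4.89 to 6.29) lie below the LPS libraries (6.53 to 7.17).

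Nlrc5, the transactivator, was the lowest of the 10 genes per kb without LPS and had the highest fold change. It was at 362, 456 and 432 normalized counts in control libraries and at 9556, 9547 and 13217 with LPS. With oxLDL it was at 337, 356 and 475, and with oxLDL+LPS at 6933, 8317 and 10002. The rise was 4.68 ± 0.15 and 4.43 ± 0.17 (log2, SE), with limma adjusted p of 4.15e-07 and 2.16e-06. The groups with and without LPS did not overlap, and the replicate 3 library was the highest of the oxLDL, LPS and oxLDL+LPS groups.

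Per kb of exon, the order of the genes changed with LPS. In control PMφs it was B2m, H2-D1, H2-K1, Tapbp, Psmb10, Psmb8, Tap2, Tap1, Psmb9 and Nlrc5, from a mean of 47952.3 normalized counts per kb to 49.1, and no neighbours overlapped. The order was the same in oxLDL PMφs. With LPS, B2m (100236.0), H2-D1 (39997.0), H2-K1 (16993.9), Tapbp (10845.7) and Psmb10 (3912) kept the first 5 places, Tap1 (2977) passed Tap2 (1697) and Psmb8 (1654), and Nlrc5 (1268) passed Psmb9 (788). Among these, Tap2 overlapped Psmb8 and Psmb8 overlapped Nlrc5. Exon lengths are those of all merged exons in GENCODE vM21, while the authors counted on an earlier release. For some genes they are well above the longest coding transcript, as for Psmb8 (3.381 kb against 1628 bases) and Tap1 (5.476 kb against 2953 bases). The order and the overlaps below Tapbp therefore depend on the length used.

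**Figure D3:**
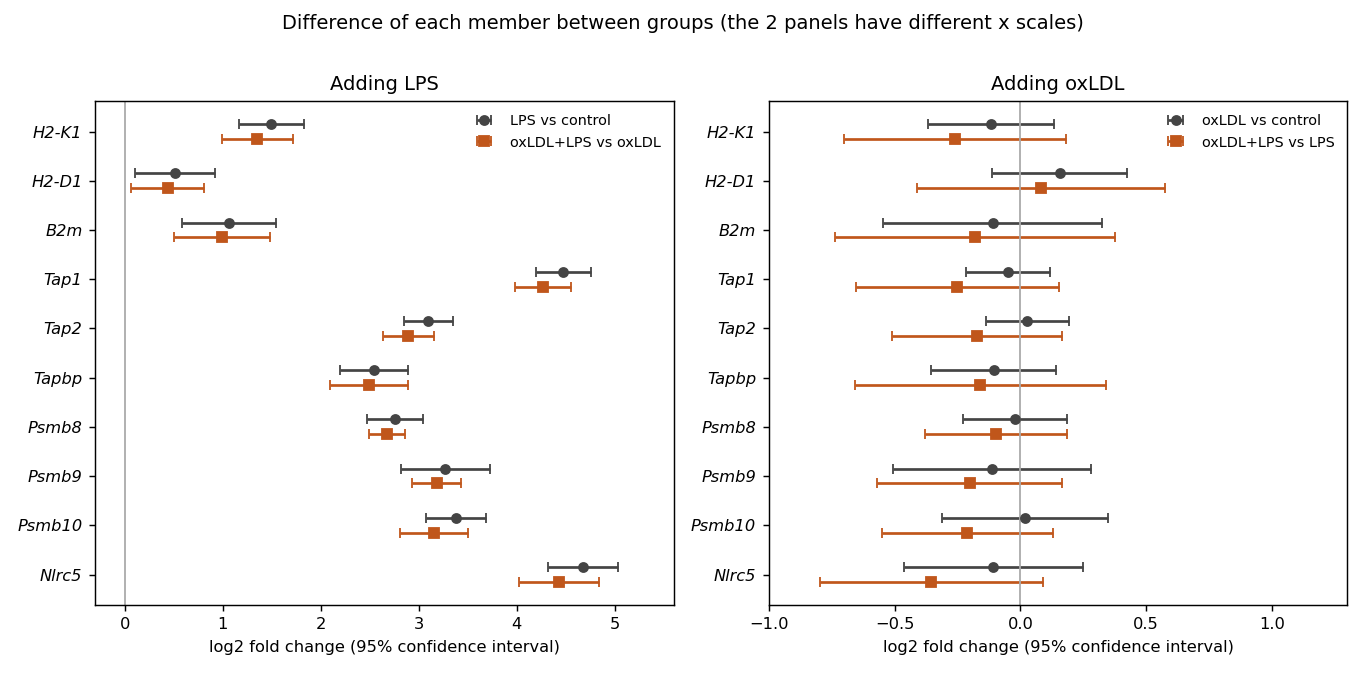
Log2 fold change with its 95% confidence interval (limma) of each gene when LPS was added (left) and when oxLDL was added (right, on a narrower x axis). Intervals on the left lie above 0 for all 10 genes in both comparisons, with fold changes from 0.51 for H2-D1 to 4.68 for Nlrc5 without oxLDL. Every interval on the right includes 0. All are from the fit without the replicate block. With the block, those of Nlrc5 and Tap1 for oxLDL+LPS vs LPS lie below 0.

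To see what oxLDL alone did to these genes, oxLDL PMφs were compared with control PMφs. None of the 10 genes was called, in a comparison where 0% of the 12751 genes tested were called higher and 0% lower by limma, and 381 genes had an unadjusted p under 0.05. The log2 differences of the 10 genes lay between −0.12 and 0.16, with a median of −0.08 beside −0.01 over all genes. The widest of their 95% intervals was that of B2m, from −0.54 to 0.32. H2-D1 was the only gene of the 10 whose groups did not overlap, with 78798 to 81246 in oxLDL libraries and 71706 to 72037 in control libraries, a log2 difference of 0.16 ± 0.11 (limma unadjusted p = 0.212). Of all genes tested, 3.79% had every oxLDL library above every control library and 3.91% every one below. With the replicate number as a block, 1.8% of all genes were called higher and 2.92% lower, and again none of the 10.

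To see whether oxLDL altered the response to LPS, oxLDL+LPS PMφs were compared with LPS PMφs. The mean was lower in 9 of the 10 genes, H2-D1 being the exception, and in 52.1% of all genes tested. Limma called none of the 10 and 0% of the 12786 genes tested in either direction, while 890 genes had an unadjusted p under 0.05. The log2 differences ran from −0.35 (Nlrc5, 95% interval −0.80 to 0.09) to 0.08 (H2-D1, −0.41 to 0.58), with a median of −0.19 beside −0.01 over all genes, and every range overlapped, against 6.18% of all genes tested with every oxLDL+LPS library above every LPS library and 6.39% with every one below. For Tap1 the difference was −0.25 (−0.65 to 0.15) and for H2-K1 −0.26 (−0.70 to 0.18). With the same total per library the median of the 10 genes was −0.10, beside 0.08 over all genes. By replicate number, 5 of the 10 genes were lower with oxLDL+LPS in all 3 pairs (H2-K1, B2m, Tap1, Tapbp and Nlrc5), against 24.4% of all genes tested. In replicate 3 all 10 genes were lower, in a pair whose totals were 26384551 with LPS and 23346854 with oxLDL+LPS. The share of all genes lower in this pair was not counted.

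With the replicate number as a block, which compares libraries of the same number, limma called 4.42% of all genes higher and 8.74% lower (565 and 1117), and 1 of the 10, Nlrc5. This balance turned to 1043 higher and 575 lower with the same total per library, and the number of genes called went from 1682 to 71 without replicate 1, to 2945 without replicate 2 and to 0 without replicate 3, where 1531 genes had an unadjusted p under 0.05. Its libraries were at 9556, 9547 and 13217 with LPS and at 6933, 8317 and 10002 with oxLDL+LPS, so that within pairs it was lower by −0.46, −0.20 and −0.40 on the log2 scale. The blocked difference was −0.35 ± 0.09 (limma adjusted p = 0.0469), and the adjusted p ranged from 0.0469 to 0.999 over the alternatives planned at first. Without replicate 1 the blocked difference was −0.30 (limma adjusted p = 0.38), without replicate 3 −0.33 (limma adjusted p = 0.375) and without replicate 2 −0.43 (limma adjusted p = 0.00112). With the same total per library and the block it was −0.26 (limma adjusted p = 0.089). Blocked values of the other 9 genes had limma adjusted p of 0.171 (Tap1) to 0.821 (H2-D1).

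**Figure D4:**
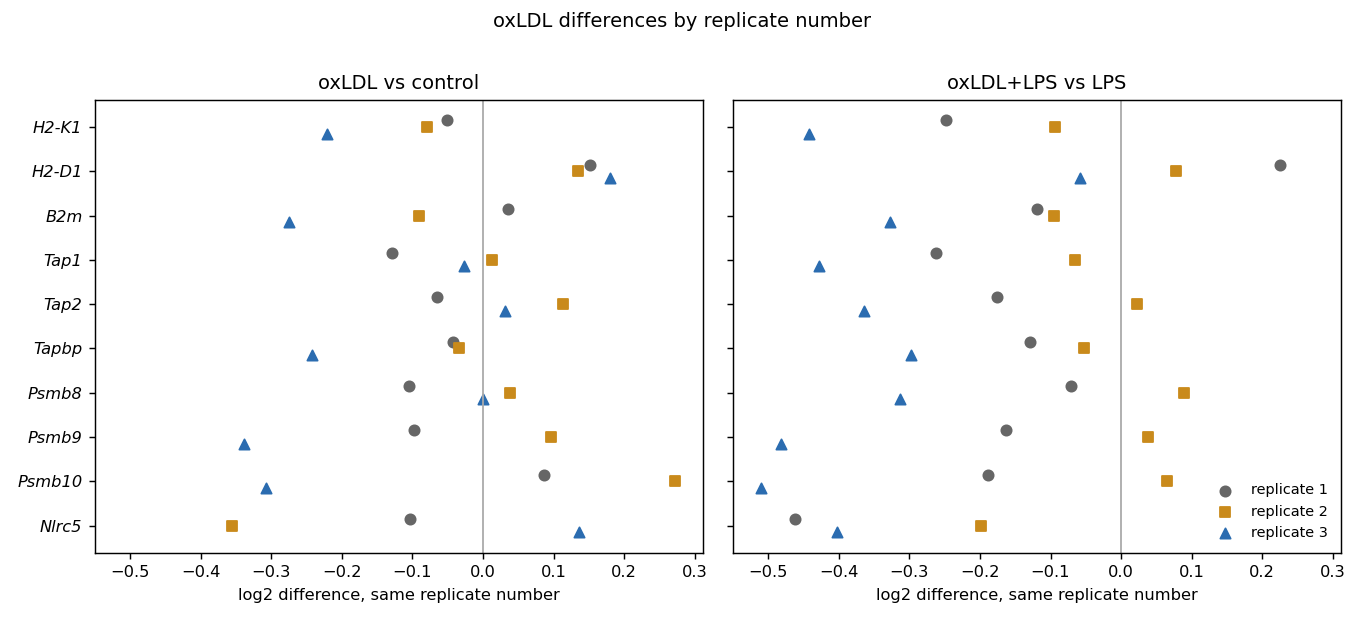
Log2 difference between libraries of the same replicate number for each gene, oxLDL minus control (left) and oxLDL+LPS minus LPS (right), on one x scale. On the right, Nlrc5 is below 0 in all 3 pairs (−0.46, −0.20 and −0.40). Replicate 3 is below 0 for all 10 genes, in a pair whose library total was also lower with oxLDL+LPS.

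The test of whether oxLDL changed the LPS difference itself was the interaction over all 12 libraries. All 10 coefficients were below 0, from −0.25 (Nlrc5, 95% interval −0.80 to 0.30) to −0.05 (Tapbp, −0.57 to 0.46), as were those of 6979 of all 13482 genes. Limma called none of the 10 and 0% of all genes, of which 418 had an unadjusted p under 0.05. With the same total per library the coefficients of H2-D1, B2m, Tapbp, Psmb8 and Psmb9 turned to above 0. With the block the fit also called 0 genes, with 967 at an unadjusted p under 0.05. A difference in the LPS response was therefore not detectable in these libraries for any of the 10. The intervals of Nlrc5 leave room for a change of up to −0.80 without the block and −0.54 with it. Psmb10 was the one subunit whose ratio to its constitutive partner did not overlap between LPS (6.53 to 7.17) and oxLDL+LPS libraries (4.89 to 6.29), with an exact two-sided permutation p of 0.1 and an adjusted p of 0.171.

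The other genes of the pathway were taken from 7 lists. As a background for the counts of each list, limma called 31.4% of all genes tested higher after LPS and 28.2% in oxLDL PMφs. It called 3946 of 13023 genes lower after LPS and 3397 of 12900 in oxLDL PMφs. After LPS, all 14 constitutive subunits of the 20S core rose, with a median log2 fold change of 0.88, and all 14 rose in oxLDL PMφs, with a median of 0.86, but with the same total per library 8 of 14 were called higher in each comparison and the medians were 0.40 and 0.47. Of the subunits named by rule, Psma5 rose by 1.88 ± 0.16 (limma adjusted p = 4.81e-05), Psma3 by 1.51 ± 0.14 and Psma4 by 1.24 ± 0.09. Of 10 activators and assembly factors, 6 rose after LPS and 7 in oxLDL PMφs, and none fell. Psme1 and Psme2, the subunits of the PA28 activator that caps immunoproteasomes, rose by 2.40 ± 0.09 and 3.31 ± 0.16 after LPS (limma adjusted p = 7.84e-07 and 2.73e-06) and by 2.10 ± 0.11 and 3.15 ± 0.09 in oxLDL PMφs. Pomp, the chaperone of proteasome assembly, rose by 1.03 ± 0.15 and Psme4, another activator, by 0.95 ± 0.13. Rescaled to the same total, 4 of the 10 were called higher and 2 lower in each comparison.

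Among 12 genes of peptide loading and processing in the endoplasmic reticulum, 6 (50%) rose and none fell after LPS, and 4 (33.3%) rose in oxLDL PMφs. Of all genes tested 31.4% and 28.2% were called higher, so the share in oxLDL PMφs was near that of all genes. Tapbpl (TAPBPR), a peptide editor related to tapasin, rose by 2.98 ± 0.19 and Erap1, the peptidase that trims peptides there, by 1.35 ± 0.17 (limma adjusted p = 9.4e-06 and 0.000331). The chaperone Hspa5 rose by 1.18 ± 0.14 and Lnpep by 0.65 ± 0.17, but with the same total per library the difference of Lnpep was 0.17 and was not called (limma adjusted p = 0.414). Calreticulin (Calr), the loading chaperone, was at a mean of 12304.3 in control and 12535.3 in LPS libraries, a log2 difference of 0.03 ± 0.11 (limma adjusted p = 0.863), and with the same total per library it was called lower (−0.46, limma adjusted p = 0.0161). Under that rescaling 3 of the 12 were called higher and 5 lower in each comparison. Of 7 cytosolic peptidases 4 rose in each comparison, led by the aminopeptidase Lap3 at 2.18 ± 0.11 after LPS and 1.72 ± 0.15 in oxLDL PMφs. Tpp2 (0.37 ± 0.08), Prep (0.61 ± 0.16) and Blmh (0.41 ± 0.12) were the others after LPS, but with the same total per library none of these 3 was called, at −0.11, 0.12 and −0.07, and 1 peptidase was called higher and 3 lower.

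Of the 21 other class I and class I-like heavy chains, 18 were in the table and 13 passed the filter. In each comparison 9 (69.2%) rose and 3 fell, beside 31.4% of all genes tested called higher after LPS and 28.2% in oxLDL PMφs. H2-M2 went from a mean of 76 to 6947 normalized counts after LPS, a log2 fold change of 6.50 ± 0.34, H2-Q7 from 84.3 to 3220 (5.22 ± 0.20), H2-Q6 from 76.7 to 2353 (4.94 ± 0.18) and H2-Q4 from 808 to 6387 (2.98 ± 0.11), with limma adjusted p of 3.97e-06 or less. The genes of the H2-Q group are near-identical copies, so the division of reads among them is uncertain. H2-T23 (Qa-1), which presents to CD94/NKG2 receptors, rose by 0.98 ± 0.13 and H2-M3, which presents formylated peptides, by 1.66 ± 0.13. The 3 genes that fell, named after their values were seen, were Mr1, which presents vitamin B metabolites (−1.76 ± 0.14 after LPS and −1.48 ± 0.18 in oxLDL PMφs), Hfe, a regulator of iron uptake (−1.09 ± 0.15 and −0.84 ± 0.16), and Fcgrt, the neonatal Fc receptor (−0.49 ± 0.17 and −0.39 ± 0.16). None of these 3 is a classical class I heavy chain, and nor are the 9 that rose. At equal totals 9 were called higher and 4 lower after LPS, and 9 and 3 in oxLDL PMφs.

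Of 19 transcription regulators of class I genes, 13 rose and 2 fell after LPS, and 12 rose and 2 fell in oxLDL PMφs. The shares called higher were 68.4% and 63.2%, beside 31.4% and 28.2% of all genes tested. Irf7, a factor of the interferon response, rose by 6.77 ± 0.19, Irf1 by 5.11 ± 0.20 and Stat2 by 4.49 ± 0.14, all with limma adjusted p of 8.7e-07 or less. Irf9 rose by 2.08 ± 0.13 and Rfx5, a subunit of the RFX complex on class I and class II promoters, by 2.11 ± 0.12. Rfxank and Rfxap, the other RFX subunits, fell by 0.69 and 0.46 on the log2 scale after LPS (limma adjusted p = 0.00307 and 0.0435). In oxLDL PMφs the 2 that fell were Irf8 (−0.59 ± 0.14) and Rfxank (−0.41 ± 0.12), and these falling genes were named after their values were seen. Ciita, the class II transactivator and a relative of Nlrc5, went from 43, 66 and 146 in control libraries to 131, 254 and 321 with LPS, ranges that overlap, and rose by 1.55 ± 0.48 (limma adjusted p = 0.0273). These were 4.32-fold for Rfx5 and 2.92-fold for Ciita, beside 25.6-fold for Nlrc5. After rescaling to equal totals, 12 regulators were called higher and 6 lower after LPS, and 11 and 7 in oxLDL PMφs.

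Of 12 interferons, receptors and kinases, 9 passed the filter. Among them 8 (88.9%) rose and 1 fell after LPS, and 7 (77.8%) rose and 1 fell in oxLDL PMφs. Of all genes tested 31.4% and 28.2% were called higher. With the same total per library 7 of the list were called higher and 1 lower in each comparison. Usp18, which restrains interferon receptor signalling, rose by 7.11 ± 0.15, Socs1 by 6.23 ± 0.30, Jak2 by 3.92 ± 0.14 and Ifnar1 by 1.73 ± 0.14 after LPS. Ifngr1, a chain of the interferon-γ receptor, was the gene that fell, by 0.57 ± 0.11 on the log2 scale and by 0.55 ± 0.12 in oxLDL PMφs. Ifnb1 was at 0 in all 6 libraries without LPS, at 8, 5 and 13 with LPS and at 4, 2 and 8 with oxLDL+LPS. No fold is given for it.

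**Figure D5:**
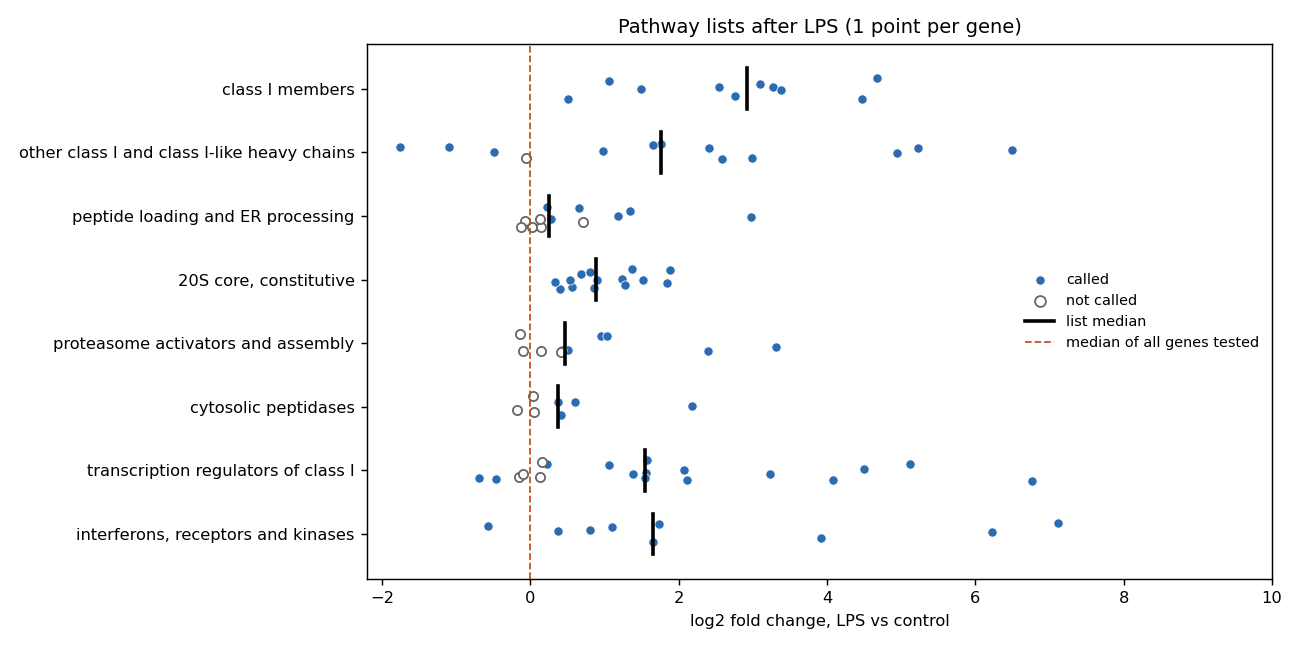
Log2 fold change after LPS (LPS vs control) of each tested gene of the 8 pathway lists, with filled points for genes called by limma, black bars for list medians and a dashed line for the median of all genes tested. The 10 class I genes have a median of 2.92, the median of the 14 constitutive 20S subunits is 0.88, although Psma5 (1.88) lies above H2-K1 (1.50), B2m (1.06) and H2-D1 (0.51), and the dashed line is at −0.001.

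When oxLDL was added, no gene of any list was called by limma in either comparison. For oxLDL vs control, the replicate block called 1.8% of all genes tested higher and 2.92% lower. There 5 of the 14 constitutive 20S subunits were higher with oxLDL, namely Psmb5 (0.33 ± 0.06), Psma5 (0.24 ± 0.06), Psma6 (0.21 ± 0.06), Psmb3 (0.19 ± 0.05) and Psmb7 (0.17 ± 0.05). Psmb5 was also higher with oxLDL+LPS than with LPS (0.42 ± 0.08, limma adjusted p = 0.0182). In that comparison, where the block called 8.74% of all genes lower, it called lower H2-M2 (−0.64 ± 0.09), H2-Q7 (−0.50 ± 0.09) and H2-Q6 (−0.41 ± 0.11) among the other heavy chains. Ciita (−0.89 ± 0.14), Irf8 (−0.83 ± 0.20), Stat3 (−0.53 ± 0.11) and Nfkb1 (−0.38 ± 0.11) were lower among the regulators, and Socs1 (−1.03 ± 0.14), Ifnar1 (−0.42 ± 0.09) and Jak2 (−0.38 ± 0.10) among the interferon signalling genes. Lnpep (−0.46 ± 0.07) and Lap3 (−0.36 ± 0.12) were lower and Sec22b (0.24 ± 0.08) higher. Without LPS the block called lower H2-Q4 (−0.28 ± 0.05), Lnpep (−0.19 ± 0.05), Stat2 (−0.25 ± 0.05) and Ciita (−0.77 ± 0.16). Psma6 and Nfkb1 were named after their values were seen. Of the 14 list genes called with oxLDL+LPS, 1 (Socs1) was still called without replicate 1 and 0 without replicate 3, and 11 with the same total per library, H2-Q6, Lap3 and Nfkb1 being lost. Of the 9 called with oxLDL alone, 1 was still called without replicate 1 (Psmb5) and 1 without replicate 2 (Ciita).

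The genes whose pattern over the 12 libraries was most like that of Tap1, by the root mean square difference of centred log2 values among 13481 genes, were Trim30a (0.08), Ifi204 (0.09), Casp4 (0.10), Trim30d (0.11) and Irgm2 (0.12). Nlrc5 was the 20th gene by likeness to Tap1 and the nearest of the other 9 genes, at 0.20. For Nlrc5 the nearest were Helz2 (0.12), Stat2 (0.12), Trim30d (0.14), Pde4b (0.16) and Trim30a (0.16), with Tap1 in 9th place. For H2-K1 they were Cds1 (0.08), Stim2 (0.08), Actn1 (0.09), Slc15a3 (0.10) and Il13ra1 (0.10), and B2m, at 0.23, was the nearest of the other 9. This measure rests mostly on the size of the LPS difference, so that H2-D1 was 0.51 from H2-K1 and 1.95 from Tap1.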

How the data were processed

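Poly(A) RNA of 12 PMφ cultures was sequenced with 150 bp paired reads. The authors trimmed adaptors with Trimmomatic 0.32, aligned to mm10 (GRCm38) with STAR 2.5.1b and counted exonic reads on a GENCODE annotation with featureCounts. The deposited signal, the normalized count here, is a table of these counts scaled by 1 factor per library and rounded. Its depth in reads is therefore not known, and tests for raw counts were not used although the study's methods name one.

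Groups were compared with limma 3.58.1 (R 4.3.3; lmFit, eBayes with a trend) on log2 of the value plus 1, keeping genes that reached 10 in 3 or more of the compared libraries. Benjamini-Hochberg adjusted p under 0.1, the study's threshold, was called. The test was checked on simulated data. Each comparison was fitted on its own 6 libraries, and the interaction on all 12. Ratios were tested with exact two-sided permutations. All libraries of a group had a label, and 0 columns were left out.

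The labels number the replicates, and by the study's methods each pool of cells was split over the groups. Deviations from the group means over 13482 genes correlated between libraries of the same number by 0.601 to 0.657 (control and oxLDL), 0.566 to 0.599 (LPS and oxLDL+LPS), 0.34 to 0.538 (control and LPS) and 0.266 to 0.566 (oxLDL and oxLDL+LPS), so the numbers pair the libraries. P-values without the block set a difference against the spread between these pools and ignore the pairing. Those with the block set it against the spread of the differences within pools.

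The 10 genes and the lists were chosen with earlier results of these data known. Named genes were the 10, up to 4 genes per list and comparison with the smallest p, and 17 genes fixed by name, of which 1 is not reported here. Likeness was measured for Tap1, Nlrc5 and H2-K1 with the 5 nearest genes. H2-Q8, H2-Q9 and H2-T9 were not matched in the table, and Adgre1 was matched as Emr1. A spreadsheet had turned 25 symbols into dates, and these were not assigned. Windows of 150 bases of the longest coding transcripts were found in transcripts of other genes for H2-D1 (1.79%, all in H2-Q1) and for none of the other 9 genes. Alternatives were a pseudocount of 5, no filter, a filter in every library, the same total per library, the replicate block, all 12 libraries in 1 fit and leaving out each library. The block without each replicate number, or with the same total, and 4 of the 7 ratios were added after the data were seen.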

Additional observations from a re-analysis of the deposited data

How the results depend on the processing

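For LPS vs control and oxLDL+LPS vs oxLDL, all 10 genes kept their direction under every alternative, and 9 of the 10 kept the call, H2-D1 being the exception given above. The replicate block, which compares paired libraries, changed no call other than that of Nlrc5 among the 10 genes. It raised the number of genes called from 0 to 601 (oxLDL vs control) and from 0 to 1682 (oxLDL+LPS vs LPS), and the number of the 10 called in the latter from 0 to 1. In alternatives added after the data were seen, leaving out each replicate number with the block gave 214, 139 and 1285 genes called without replicates 1, 2 and 3 for oxLDL vs control and 71, 2945 and 0 for oxLDL+LPS vs LPS, and the same total per library gave 707 and 1618. With all 12 libraries in 1 fit, 29 genes were called for oxLDL+LPS vs LPS. Leaving out each library gave 0 to 91 genes called for oxLDL+LPS vs LPS and 0 to 6 for the interaction, the highest numbers both without oxLDL+LPS replicate 2.

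Where no gene of the 10 was called, signs turned in some alternatives, and the cause was not tested. With the same total per library the interaction coefficients became 0.0189 (H2-D1), 0.0228 (B2m), 0.0401 (Tapbp), 0.0171 (Psmb8) and 0.00403 (Psmb9). Leaving out each library moved oxLDL vs control from −0.264 to 0.0342 (B2m), −0.0907 to 0.141 (Psmb10), −0.0972 to 0.025 (Psmb8), −0.204 to 0.0658 (Psmb9) and −0.0159 to 0.0526 (Tap2). It moved oxLDL+LPS vs LPS from −0.0356 to 0.167 (H2-D1) and −0.17 to 0.00937 (Psmb8), and the interaction from −0.227 to 0.0837 (B2m), −0.191 to 0.011 (H2-D1), −0.148 to 0.0318 (Psmb8), −0.268 to 0.0808 (Psmb9) and −0.207 to 0.0755 (Tapbp). The log2 difference of the Psmb9 to Psmb6 ratio for oxLDL vs control moved from −0.293 to 0.0123. With 3 libraries a group, the fit without the block cannot tell an oxLDL difference of the size of its intervals from none. The number of reads behind the scaled values is not known.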
